A study of Oncorhynchus mykiss with 6 samples.

Results

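The let-7 family was examined in the miRNA table of rainbow trout dorsal skin. Members were all entries whose name, without its species prefix, read let-7 or miR-98, whatever the letter, arm or length, and 66 of the 1426 entries met this rule. The 66 entries held 47 different sequences, of which 27 (39 entries) came from the 5p arm and 20 (27 entries) from the 3p arm of the hairpin. Small RNA was sequenced from 3 dorsal skins of black wild-type fish (WR_S) and 3 of fish of the yellow mutant strain (YR_S), to find differences between the skins of these strains. All fish were females of 12 months post hatching from the same flowing water pond, all were put down with an anaesthetic before the skin was taken, and each library came from 1 skin. The study's background describes YR_S skin as lacking melanocytes and having fewer xanthophores than WR_S skin, and the mutation behind the yellow colour was not given in the sources used here.

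A let-7 hairpin is cut into a 5p strand, which is the guide loaded into the silencing complex for most members, and a 3p strand, which is mostly discarded. The guide recognises messenger RNAs mainly through its seed, bases 2 to 8, and all let-7 paralogs are known for sharing 1 seed, so that they differ in the bases behind it. The family is known in animals for rising as cells stop dividing and differentiate, for repressing growth genes such as those of Ras, Myc and Lin28, and for being held back by the protein Lin28, which binds let-7 precursors. Teleosts carry more let-7 hairpins than mammals, and several of these lie in clusters with hairpins of the miR-99, miR-100 and miR-125 families.

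The 9 most abundant 5p sequences are shown because they made up nearly the whole family, and because the paralogs can be told apart only by the bases behind the seed. They are written as DNA letters, as deposited, with the seed (bases 2 to 8) in capitals.
let-7a: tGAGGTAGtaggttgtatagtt
let-7j: tGAGGTAGttgtttgtacagtt
let-7i: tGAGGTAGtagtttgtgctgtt
let-7b: tGAGGTAGtaggttgtgtggtt
let-7e: tGAGGTAGtagattgaatagtt
let-7d: tGAGGTAGttggttgtatggtt
let-7g: tGAGGTAGtagtttgtatagtt
let-7h: tGAGGTAGtaagttgtgttgtt
let-7c: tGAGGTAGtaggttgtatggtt

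All 9 were 22 bases long and carried the seed GAGGTAG. Counted from 1 at the 5′ end, with the base of let-7a first, let-7c differed from let-7a by A19G alone and let-7g by G12T alone. let-7b differed by A17G and A19G, let-7d by A10T and A19G, and let-7e by G12A and T16A. let-7j carried A10T, G12T and T18C, let-7h carried G11A, A17G and A19T, and let-7i was the most distant, with G12T, A17G, T18C and A19T. The choice of these 9 sequences (22 bases and a mean of at least 500 CPM) was made after their values were seen.

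Next, 8 of the 12 3p sequences with a mean of at least 10 CPM are shown, because, unlike the 5p paralogs, they do not share 1 seed. The capitals again mark bases 2 to 8.
ssa-let-7h-3p: cTATACAActtactgccttcct
ssa-let-7b-3p_1ss22CT: cTGTACAAcctactgccttcct
hsa-let-7i-3p_1ss9GA: cTGCGCAAactactgccttgct
ssa-let-7a-3-3p_1ss22CT: cTATACAActtactgtctttct
ssa-let-7c-3p: cTGTACAAccttctagctttcc
ssa-let-7a-4-3p: cTATACAGtctattgccttcct
ssa-let-7a-3p: cTGTACAGcctcctagctttcc
oni-let-7a-1-p3_1ss3GA: cTATACAAcctcctagctttcc

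The entries were named after the database sequence they matched, with a prefix for its species (ssa for Atlantic salmon, hsa for human, oni for Nile tilapia). A suffix such as R+2 or L+2 gives bases added at the 3′ or 5′ end, and 1ss22CT gives a base change at position 22. The 66 entries carried 20 species prefixes, 22 of them that of Atlantic salmon and 0 that of rainbow trout. Identical sequences stood in several entries, up to 5 for 1 sequence, and such entries held identical counts. Many of these counts were not whole, and more became whole when multiplied by the number of entries, so they were read as shared reads divided among the entries, although most values of sequences in 3 to 5 entries did not become whole. Levels of a sequence are therefore given as the sum over its entries, in CPM, the count relative to the scaled total of its library, whereas each test was made on single entries. Sequences in 1 entry also held fractions, with 73.6% of their values whole. For example, ssa-let-7e-5p held 22916.17 counts in WR_S replicate 1. The source of these fractions was not given in the sources used here. Reads may thus be split between different sequences too, and the paralog levels and shares below carry this limit.

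The 6 libraries held between 1442631 and 5089802 counts, with YR_S replicate 1 the shallowest and the others at 4375641 or more. A count of 3 stood for 2.08 CPM in YR_S replicate 1, whereas it stood for 0.589 to 0.686 CPM elsewhere. The miRNAs known from skin epithelium (35 entries of mir-203, mir-205, mir-200a, mir-200b, mir-141 and mir-429, 25 of them above 0 in every library) summed to 26357 to 36677 CPM in WR_S and 23186 to 35123 CPM in YR_S. Muscle miRNAs (21 entries of mir-1, mir-133, mir-206 and mir-499) summed to 2806 to 12618 CPM in WR_S and 2008 to 4951 CPM in YR_S, and the liver miRNA mir-122 (2 entries) reached 3405 CPM in WR_S replicate 3 against 5.86 to 51.3 CPM elsewhere. WR_S replicate 3 was thus the highest in both, and stood apart by the liver miRNA. In muscle miRNAs WR_S replicate 2, at 6965 CPM, also lay above every YR_S library. Leukocyte miRNAs (15 entries) lay at 1069 to 1672 CPM in WR_S and 969 to 1550 CPM in YR_S, and red cell miRNAs (7 entries) at 33.5 to 309 CPM in WR_S and 106 to 272 CPM in YR_S.

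The family was a large and even share of skin miRNA in both strains. It made up 8.45%, 7.33% and 9.30% of all counts in WR_S replicates 1 to 3 and 7.5%, 8.20% and 8.37% in YR_S replicates 1 to 3. The summed level was 80858 ± 10274 CPM in WR_S and 83516 ± 11439 CPM in YR_S (mean ± SD, n = 3), a log2 ratio of 0.05. The groups overlapped, with the lowest library in WR_S (replicate 2, 69734 CPM) and the highest in YR_S (replicate 2, 91552 CPM), and no test was made on a sum over members. In a bulk sample, fewer cells of a type and less of the RNA per cell cannot be told apart.

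Among the 5p sequences, let-7a was by far the most abundant. Its summed level was 46198, 36698 and 44307 CPM in WR_S replicates 1 to 3 and 41736, 51081 and 50279.6 CPM in YR_S replicates 1 to 3. The lowest let-7a library exceeded the highest library of let-7j, the next paralog in order. The difference between the strains was small beside the spread, since the log2 fold change of ssa-let-7a-5p, YR_S over WR_S, was 0.17 ± 0.18 (SE) with a 95% interval of -0.25 to 0.59 (edgeR's quasi-likelihood test with Benjamini-Hochberg adjustment, adjusted p = 0.852). YR_S replicates 2 and 3 lay above all WR_S libraries and YR_S replicate 1 lay among them.

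Among the next 5 paralogs each overlapped its neighbour in level, and let-7j, let-7i and let-7b had no clear order. The highest let-7d library (4464 CPM) lay below every library of these 3, of which the lowest was at 4659 CPM. let-7j was at 8167, 7652 and 9366 CPM in WR_S and 5143, 8843 and 6512 CPM in YR_S. let-7i, one of the paralogs with the most base differences, was at 6973, 6834 and 10226 CPM in WR_S and 5032, 8766 and 7808 CPM in YR_S. let-7b was at 7189, 5365 and 8276 CPM in WR_S and 5304, 4659 and 7834 CPM in YR_S. In all 3 of these the highest library was from WR_S (replicate 3), the lowest was from YR_S, and the groups overlapped. let-7e followed at 4415, 4617 and 5657 CPM in WR_S and 4046, 6234 and 4409 CPM in YR_S, and let-7d at 3219, 2522 and 3829 CPM in WR_S and 2849.9, 4464 and 3893 CPM in YR_S. For both of these the highest library was YR_S replicate 2.

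let-7g, which differs from let-7a by 1 base, was at 3029.7, 2886 and 3358 CPM in WR_S and 2869, 3835 and 3161 CPM in YR_S. let-7h was at 1683, 1270.1 and 1644 CPM in WR_S and 1260.0, 1844 and 1747 CPM in YR_S. let-7c was the least abundant of the 9, at 768, 639 and 929.9 CPM in WR_S and 592, 717 and 858 CPM in YR_S, although it also differs from let-7a by 1 base. Neighbours in the order of levels had ranges over the 6 libraries that did not overlap at only 3 places, which were let-7a above let-7j, let-7g above let-7h, and let-7h above let-7c. From let-7j down to let-7g each paralog overlapped its neighbour, but let-7e was above let-7d in 6 of 6 libraries, whereas let-7i was above let-7b in 3 of 6. The order rests on adding entries. With 1 entry per sequence, let-7a was still highest at 7340 to 10216 CPM, but let-7e came next with a mean of 4896 CPM over the 6 libraries, ahead of let-7j with 3807 and let-7i with 3803 CPM.

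**Figure D1:**
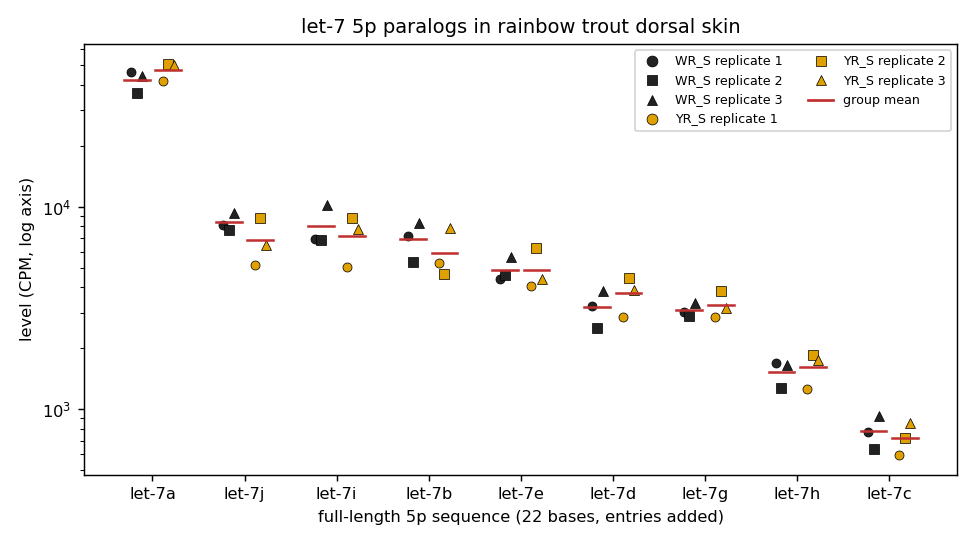
Level of each of the 9 full-length let-7 5p sequences (CPM on a log axis, entries of 1 sequence added) in the 3 WR_S libraries (black) and 3 YR_S libraries (yellow), with red lines for the group means. let-7a lies between 36698 and 51081 CPM, above all others, and the libraries of the strains overlap for all 9 sequences.

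None of the 9 paralogs separated the strains. All 9 overlapped between WR_S and YR_S, and 4 had a higher and 5 a lower mean CPM in YR_S. Each sequence varied by 1.34-fold to 2.03-fold between its lowest and highest library. The lowest fitted value was let-7j, with a log2 fold change of -0.30 ± 0.23 (SE), a 95% interval of -0.84 to 0.24 and an adjusted p of 0.814 in edgeR's quasi-likelihood test. The highest was let-7d (ssa-let-7d-5p), at 0.23 ± 0.25 with an interval of -0.35 to 0.81 (adjusted p = 0.853 in the same test). Over the 9 paralogs the intervals ran no lower than -0.84 and no higher than 0.81. Single intervals were narrower, such as -0.25 to 0.59 for let-7a. Changes within a paralog's own interval were not resolved with 3 libraries per group. The other values, all by the same fit, were -0.23 for let-7b, -0.15 for let-7i, -0.11 for let-7c, 0.00 for let-7e, 0.08 for let-7h and 0.09 for let-7g. Their adjusted p-values were 0.856 or more in edgeR's test. Some libraries stood high or low across paralogs, since YR_S replicate 2 was the highest library for 5 of the 9 and YR_S replicate 1, the shallowest, was the lowest for 6 of the 9. The p-values measure only the spread between these libraries, each from 1 skin.

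Over all members, 61 of the 66 entries (43 of the 47 sequences) passed the filter of a value above 0 in at least 3 of the 6 libraries and were tested. At the thresholds of the study's methods for differentially expressed miRNAs (a log2 fold change of 1 or more in either direction, with an unadjusted p under 0.05), 0 of the 61 were called, beside 89 of all 1085 entries tested (8.2%). At an unadjusted p under 0.05 alone, 0 members and 113 of all entries (10.4%) were called, and at an adjusted p under 0.05 edgeR called 0 members and 0 of all entries (0%), while DESeq2 called 36 of all entries and 0 members. The smallest adjusted p of a member in edgeR's test was 0.710. Groups without overlap were found for 1 of the 61 members, beside 188 of all entries tested (17.3%). That entry was gga-let-7a-2-3p_R+1_1ss3GA, a scarce 3p variant at 0, 0.850 and 1.48 CPM in WR_S and 2.60, 1.79 and 3.38 CPM in YR_S. It rested on at most 14 counts in a library, and its log2 fold change of 1.71 ± 1.09 (SE) had an interval of -0.79 to 4.21 (adjusted p = 0.710 in edgeR's test). By sequence this variant was oni-let-7a-1-p3_1ss3GA with a further t at the end. That more abundant entry overlapped between the strains, at 8.71 to 41.5 CPM in WR_S and 18.1 to 37.1 CPM in YR_S.

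The direction of the members was not stable. Of the 61 entries 38 were higher and 23 lower in YR_S, and their log2 fold changes had a median of 0.08 beside -0.03 for all entries tested. Taken once per distinct set of counts, 24 of 43 were higher, with a median of 0.01. With library totals in place of scaling factors, 24 of 61 were higher, and the median was -0.02 beside -0.13 for all entries. When identical sequences were added before the fit, 15 of 43 were higher, with a median of -0.13 beside -0.20. By arm, 18 of 36 tested 5p entries and 20 of 25 tested 3p entries were higher in YR_S, none of them past a threshold. Over all entries tested, 514 of 1085 were higher. Taken once per distinct set of counts, these were 10 of 24 for 5p, 14 of 19 for 3p and 432 of 914 for all entries. The summed 3p level was not higher in YR_S, with a mean of 1394 CPM against 1416 CPM in WR_S.

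**Figure D2:**
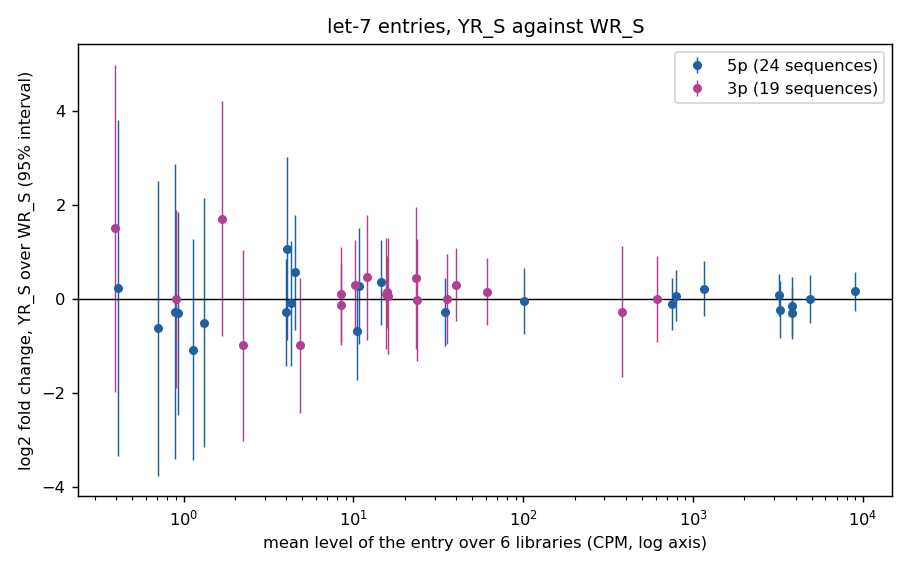
Log2 fold change of YR_S over WR_S from edgeR (points) with its 95% interval (bars) against the mean level of the entry on a log axis (CPM), for 24 tested 5p (blue) and 19 tested 3p (purple) sequences, 1 entry each. All intervals cross 0, and they narrow towards the abundant 5p entries, where those of the 9 paralogs stay between -0.84 and 0.81.

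Shares within the family do not depend on how libraries are scaled. Assigned by sequence, let-7a made up 56.4%, 53.5% and 50.5% of the summed 5p level in WR_S replicates 1 to 3 and 60.5%, 56.3% and 58.0% in YR_S replicates 1 to 3. The ranges overlapped only narrowly, by WR_S replicate 1 and YR_S replicate 2. The let-7j share was 9.97%, 11.1% and 10.7% in WR_S and 7.45%, 9.75% and 7.51% in YR_S. All 3 WR_S libraries lay above all 3 YR_S libraries, but YR_S replicate 2 came within a small distance of WR_S replicate 1. Without YR_S replicate 2, the level of gmo-let-7j-5p had a log2 fold change of -0.53 ± 0.19 (SE), and its adjusted p in edgeR's test was still 0.361.

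The shares of the other 7 sequences overlapped between the strains. let-7i ranged from 7.29% to 11.6% of the 5p sum, let-7b from 5.14% to 9.43%, and let-7e from 5.08% to 6.88%. let-7d ranged from 3.67% to 4.92%, let-7g from 3.65% to 4.23%, let-7h from 1.83% to 2.06% and let-7c from 0.791% to 1.06%. The let-7h share was thus the steadiest over the libraries and the let-7b share the least steady. let-7b was lowest in YR_S replicate 2, at 5.14% against 7.69% to 9.43% in the other libraries. The ratio of let-7a to let-7b was 10.96 in that library and 5.35 to 7.87 in the other 5. No test was made on shares, which are tied to each other because they add up to a whole.

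**Figure D3:**
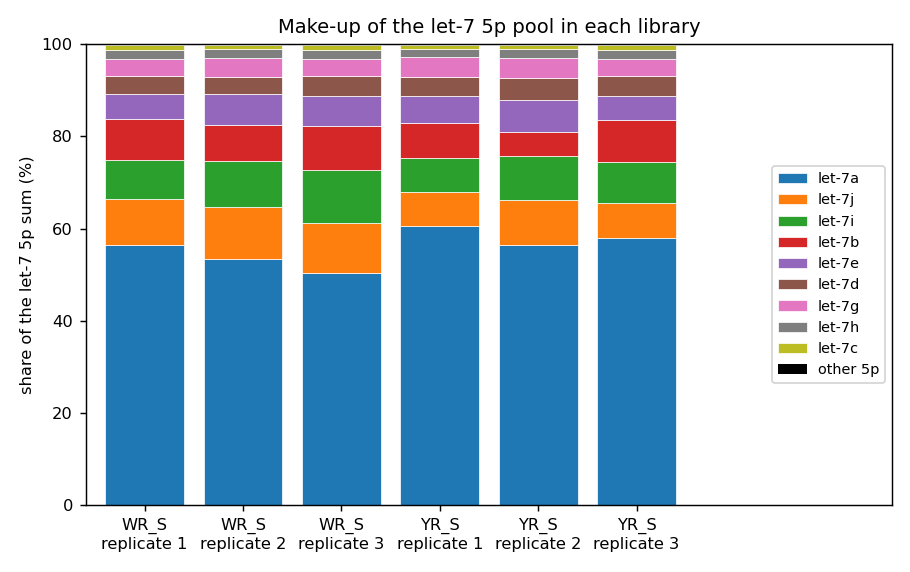
Share of each of the 9 let-7 paralog sequences in the summed let-7 5p level (per cent of CPM) in each library, drawn as stacked bars, with all other 5p sequences in black. let-7a takes 50.5% to 60.5%, let-7j is 9.97% to 11.1% in WR_S and 7.45% to 9.75% in YR_S, and let-7b is smallest in YR_S replicate 2 (5.14%).

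The 3p strands were scarce but varied more between fish. They summed to 971, 1087 and 2189 CPM in WR_S and 1430.5, 886 and 1867 CPM in YR_S, which was 1.17%, 1.56% and 2.43% of the family in WR_S and 2.03%, 0.968% and 2.11% in YR_S. The groups overlapped, and WR_S replicate 3 was the highest. Over sequences with a mean of at least 10 CPM, the ratio of the highest to the lowest library had a median of 2.95 for 12 3p sequences (1.48 to 5.31) and of 1.77 for 14 5p sequences (1.34 to 4.0). WR_S replicate 3 was the highest library for 7 of the 12 3p sequences. The arms were not matched for level in this comparison. The scarce 5p variants aca-let-7a-5p_L+2, mmu-let-7j_1ss8TG, gga-let-7b_L+2 and pma-let-7d-p5 varied 1.90-fold, 2.38-fold, 3.33-fold and 4.0-fold.

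ssa-let-7h-3p and ssa-let-7b-3p_1ss22CT made up most of the 3p level. ssa-let-7h-3p was at 486, 521 and 822 CPM in WR_S and 698, 299.9 and 838 CPM in YR_S. Its log2 fold change was 0.01 ± 0.40 (SE), with a 95% interval of -0.91 to 0.92 (adjusted p = 0.997 in edgeR's test). YR_S held both its highest and its lowest library. ssa-let-7b-3p_1ss22CT was at 210.2, 239 and 789.5 CPM in WR_S and 356, 149 and 528 CPM in YR_S. Its highest library, WR_S replicate 3, was 5.31-fold above its lowest, YR_S replicate 2, and the fold change between strains was -0.26 ± 0.61 (SE) on the log2 scale (interval -1.66 to 1.13, adjusted p = 0.939 in edgeR's test).

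The arms of let-7h were closer in level than those of the other letters. Entries named let-7h had 22.9%, 29.7% and 34.5% of their level on the 3p arm in WR_S and 36.3%, 14.5% and 33.3% in YR_S, with overlapping groups. This share was 2.96% to 8.74% for entries named let-7b and 3.14% to 7.70% for those named let-7c. For let-7i it was 0.969%, 1.09% and 0.891% in WR_S and 1.37%, 1.35% and 1.11% in YR_S, so that all YR_S libraries lay above all WR_S libraries, the only letter for which this share did so, with no test made. It was below 1% in every library for let-7a, let-7d, let-7e and let-7g. For let-7d it rests on ipu-let-7d-1-p3 alone, which holds the sequence and the divided counts of ssa-let-7c-3p. The let-7d value is thus not a measure of let-7d arms. The ratio of ssa-let-7h-3p to the let-7h 5p sequence was 0.289, 0.410 and 0.50 in WR_S and 0.554, 0.163 and 0.480 in YR_S. YR_S replicate 2, which had the lowest ratio, held the highest let-7h 5p level and the lowest let-7h 3p level of all 6 libraries. let-7b differed from let-7h there, since both arms of let-7b were lowest in YR_S replicate 2.

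The 20 3p sequences carried 6 different seeds. The seed TATACAA was held by 10 sequences, among them ssa-let-7h-3p, and their sum was 581, 635 and 1060.3 CPM in WR_S and 840.1, 441 and 1033 CPM in YR_S. The seed TGTACAA was held by 4 sequences, including ssa-let-7b-3p_1ss22CT and ssa-let-7c-3p, at 262, 295 and 908 CPM in WR_S and 416, 234 and 626 CPM in YR_S. For both seeds the groups overlapped and YR_S replicate 2 was lowest. The seed TGCGCAA of the let-7i 3p strand went the other way in that library, at 68.2, 75.0 and 91.9 CPM in WR_S and 69.7, 119.9 and 87.8 CPM in YR_S, where replicate 2 was the highest of all libraries. The seed TATACAG (2 sequences) lay between 48.0 and 86.2 CPM, the seed TGTACAG (ssa-let-7a-3p) between 10.3 and 39.5 CPM, and the remaining seed belonged to ssa-let-7e-3p_L+3R-2, a shifted strand at no more than 4.24 CPM.

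**Figure D4:**
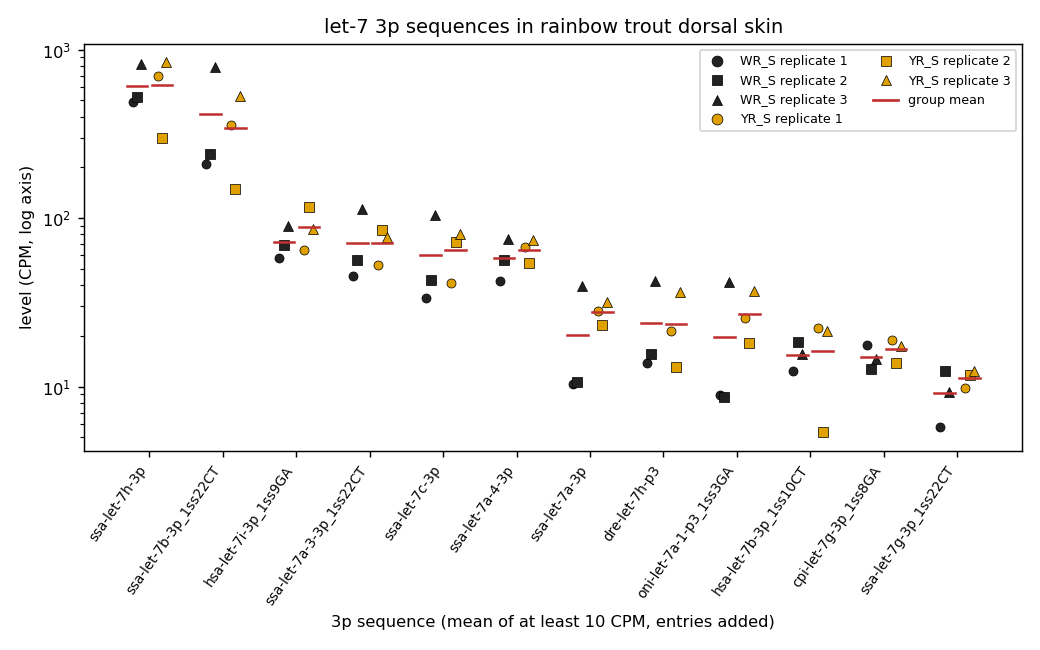
Level of the 12 let-7 3p sequences with a mean of at least 10 CPM (log axis, entries of 1 sequence added) in the 3 WR_S (black) and 3 YR_S (yellow) libraries, with red lines for the group means. WR_S replicate 3 (black triangles) is the highest library for 7 of the 12, for example 789.5 CPM for ssa-let-7b-3p_1ss22CT against 210.2 and 239 CPM in the other WR_S libraries.

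Most other 3p strands overlapped between the strains in the same manner. hsa-let-7i-3p_1ss9GA was at 58.2, 69.0 and 89.2 CPM in WR_S and 64.9, 117 and 85.5 CPM in YR_S. ssa-let-7c-3p was at 33.4, 42.8 and 104 CPM in WR_S and 41.2, 71.8 and 80.5 CPM in YR_S. ssa-let-7a-4-3p was at 42.2, 56.2 and 75.3 CPM in WR_S and 67.1, 53.8 and 73.9 CPM in YR_S. Within WR_S, replicate 3 was the highest library for all 3 strands. The only entry named miR-98 (xla-miR-98-3p_1ss8GA) was scarce and even, at 8.09, 8.28 and 9.85 CPM in WR_S and 8.14, 7.27 and 9.16 CPM in YR_S. By sequence it was dre-let-7h-p3 with a further c at the end, so its name does not set it apart from let-7h. The shorter dre-let-7h-p3 was higher in every library and less even.

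A pair of let-7a 3p strands depended on WR_S replicate 3. ssa-let-7a-3p was at 10.3, 10.6 and 39.5 CPM in WR_S and 28.0, 23.1 and 31.8 CPM in YR_S. oni-let-7a-1-p3_1ss3GA was at 8.86, 8.71 and 41.5 CPM in WR_S and 25.4, 18.1 and 37.1 CPM in YR_S. In both, WR_S replicates 1 and 2 lay below all 3 YR_S libraries and WR_S replicate 3 lay above them. With all 6 libraries the log2 fold changes were 0.46 and 0.45 in edgeR's fit, neither past a threshold. Without WR_S replicate 3 they were 1.28 ± 0.47 and 1.51 ± 0.48 (SE), which met the study's thresholds, and their adjusted p-values in edgeR's test were 0.419 and 0.40. In that fit 4 of 59 tested members met these thresholds, beside 76 of all entries. Among the 4, ssa-let-7a-3p and gga-let-7a-2-3p_1ss8AG hold 1 sequence with identical counts. The number of all entries tested in that fit is not given here (1085 in the main fit). The share of members called was therefore not set against that of all entries. WR_S replicate 3 was also the library with the most muscle and liver miRNA (12618 and 3405 CPM in sum), and the part of this in the 3p levels was not tested.

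The 3p strand of a cluster partner had a similar order of libraries. oni-mir-125b-2-p3, the passenger strand of a miR-125b hairpin, was at 172, 213 and 902 CPM in WR_S and 489, 333 and 635 CPM in YR_S. As with oni-let-7a-1-p3_1ss3GA, WR_S replicate 3 was highest, WR_S replicates 1 and 2 were lowest, and the YR_S libraries stood between. This resemblance was picked out after the values were seen and is a description only. As a single entry, the miR-125b 5p strand gmo-miR-125b-5p did not share it, at 11592, 12000.1 and 13683 CPM in WR_S and 12698, 14354 and 18371 CPM in YR_S. The entries tni-miR-125b and ssa-miR-125a-5p held the same values, and they are not added here.

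Among the 5p sequences of the family, those of 22 bases held 99.86% to 99.90% of the level in every library. The 9 paralogs alone held 99.7% to 99.8%, and sequences of 24 bases held 0.0780% to 0.111%. Whether an entry's count includes reads that end a base earlier or later was not given in the sources used here, so these shares are shares of entries and may not be those of read lengths. Of the 27 5p sequences, 23 carried the seed GAGGTAG and 4 began earlier, which moves another set of bases into positions 2 to 8. The variants below are shown for this difference in start and end, with bases 2 to 8 in capitals.
aca-let-7a-5p_L+2: aATGAGGTagtaggttgtatagtt
gga-let-7b_L+2: aATGAGGTagtaggttgtgtggtt
mmu-let-7j_1ss8TG: tGAGGTAGtagtttgtgctgttat
xtr-let-7b_1ss19AC: tGAGGTAGtagtttgtgtcgtt
pma-let-7d-p5: tGAGGTAGtaggttgtaaa

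The sequences with an earlier start summed to 62.3, 54.2 and 52.5 CPM in WR_S and 34.5, 43.5 and 53.8 CPM in YR_S. The strains overlapped through YR_S replicate 3. aca-let-7a-5p_L+2, which is let-7a with 2 more bases in front, was the most abundant of them at 44.4, 34.2 and 35.3 CPM in WR_S and 23.4, 32.1 and 38.7 CPM in YR_S. Its log2 fold change was -0.27 ± 0.31 (SE), with an adjusted p of 0.856 in edgeR's test. gga-let-7b_L+2, the same extension of let-7b, was at 11.9, 14.4 and 12.5 CPM in WR_S and 7.81, 4.34 and 12.1 CPM in YR_S. Its value of -0.68 ± 0.45 (SE) was the furthest from 0 among members with a mean of at least 10 CPM, with a 95% interval of -1.72 to 0.36 and an adjusted p of 0.727 in edgeR's test.

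Sequences with the let-7 seed and added 3′ bases summed to 23.3 to 35.4 CPM in WR_S and 22.4 to 46.9 CPM in YR_S, and sequences of 19 bases to 4.46 to 18.6 CPM in WR_S and 9.76 to 18.1 CPM in YR_S. The most abundant of the longer forms, mmu-let-7j_1ss8TG, was at 15.6, 13.4 and 9.32 CPM in WR_S and 15.0, 22.2 and 11.8 CPM in YR_S. The most abundant short form, pma-let-7d-p5, was at 14.6, 4.04 and 10.4 CPM in WR_S and 11.1, 8.16 and 16.2 CPM in YR_S. Both overlapped between the strains. xtr-let-7b_1ss19AC, a 22-base sequence that matches none of the 9 paralogs, was the next in level after them on the 5p arm, at 116, 73.5 and 116 CPM in WR_S and 76.8, 117 and 103 CPM in YR_S. Its log2 fold change was -0.04 ± 0.30 (SE), with an adjusted p of 0.987 in edgeR's test.

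Names and sequences did not always go together. The entry ssa-let-7g-5p_1ss12TG held the let-7a sequence, so that entries named let-7a made up 42.3% ± 2.53 of the family in WR_S and 46.1% ± 1.45 in YR_S (SD, n = 3), whereas the let-7a sequences, longer variants included, made up 52.6% ± 3.27 and 57.3% ± 1.79. Entries named let-7g held 14.4% ± 0.68 and 15.4% ± 0.51, of which the let-7g sequence was the smaller part. On both ways of counting, the let-7a share of the whole family was higher in the 3 YR_S libraries than in the 3 WR_S libraries, by name 44.9% to 47.7% against 39.7% to 44.8%, a gap between the groups that is far smaller than the spread within each. mmu-let-7j_1ss8TG contained the let-7i sequence, and dre-let-7a_R+2_1ss19AG and mmu-let-7c-5p_R+2 were 1 sequence, which contained let-7c. On the 3p arm, ipu-let-7d-1-p3 held the sequence of ssa-let-7c-3p, and xla-miR-98-3p_1ss8GA contained that of dre-let-7h-p3. hsa-let-7b-3p_1ss10CT differed from ssa-let-7h-3p in its last base alone. The only entry named let-7f, ssa-let-7f-5p_R-3_1ss12AG, was a 19-base sequence at 0.425 to 1.66 CPM.

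The remaining members were scarce. Of the 47 sequences, 35 (52 entries) were above 0 in all 6 libraries and 26 had a mean of at least 10 CPM. The 4 sequences that were not tested (5 entries) were listed in at most 2 libraries each and reached no more than 1.93 CPM. Among the scarce tested members, ssa-let-7i-2-3p_R-1_1ss9GA was at 10.02, 5.95 and 2.75 CPM in WR_S and 4.77, 3.15 and 2.25 CPM in YR_S, with a log2 fold change of -0.98 ± 0.62 (SE) and an adjusted p of 0.710 in edgeR's test. Without WR_S replicate 3 this value was -1.47, with an adjusted p of 0.458 in edgeR's test. ssa-let-7j-5p_1ss16GC, which is named let-7j but matches none of the 9 paralogs, was at 4.29, 1.27 and 2.49 CPM in WR_S and 0.521, 5.18 and 10.6 CPM in YR_S. Its value of 1.08 ± 0.84 (SE) rested on YR_S replicates 2 and 3, and YR_S replicate 1 was below all WR_S libraries.

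The families that share clusters with let-7 in vertebrates also gave 0 calls. Of 38 entries of mir-99, mir-100 and mir-125, 34 were tested, 19 were higher and 15 lower in YR_S, and the median log2 fold change was 0.04 beside -0.03 for all entries tested. None had an unadjusted p under 0.05, beside 10.4% of all entries tested, and 2 of the 34 had groups without overlap, beside 17.3%. As a single entry, ssa-miR-100a-5p was at 44184, 40829 and 58649 CPM in WR_S and 42574, 61442 and 53685 CPM in YR_S. Its log2 fold change was 0.13 ± 0.21 (SE, adjusted p = 0.900 in edgeR's test). The entry gmo-miR-100a-5p held the same values, and single entries of the let-7a sequence were at 7340 to 10216 CPM. Outside the family, 1 entry carried the let-7 seed at bases 2 to 8. This was PC-5p-6290_425, a predicted miRNA at 25.6, 22.9 and 16.3 CPM in WR_S and 16.3, 35.2 and 19.5 CPM in YR_S, with overlapping groups and an adjusted p of 0.967 in edgeR's test. PC-5p-34573_51 and PC-5p-82863_8, also outside it, held the let-7e and let-7g sequences behind 2 added bases, at no more than 4.25 and 1.02 CPM.

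By its values over the 6 libraries, the summed let-7 level was most like ssa-miR-214-5p, with a Pearson r of 0.96 between log2(CPM + 1) values. ssa-miR-489-3p followed with 0.95, ssa-miR-27c-3p with 0.92, gmo-miR-100a-5p with 0.91 and ssa-miR-130a-3p with 0.90. These 5 were the highest of 235 entries outside the family with a mean of at least 100 CPM, the 6 points share their libraries and scaling, and the values are a description without a test. In ssa-miR-214-5p, the libraries WR_S replicate 2 and YR_S replicate 1 were the lowest at 246 and 238 CPM, as they were for the family, against 317 to 334 CPM in the other 4.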

How the data were processed

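Small RNA libraries from 6 dorsal skins (3 WR_S, 3 YR_S, grouped by their labels) were analysed. According to the study's methods, the authors filtered reads with ACGT101-miR, matched tags to miRBase and predicted further miRNAs with Mireap. No genome build for this step is named in the sources used here. Each entry has a deposited estimated count, in which reads appear divided among entries of 1 sequence. For sequences in 1 entry, 73.6% of the values above 0 were whole, and the source of the other fractions was not given. Multiplied by the number of entries, the whole values among those above 0 (tolerance 1e-06) went from 35.2% to 65.2% for sequences in 2 entries, from 12.3% to 30.8% in 3, from 7.69% to 26.9% in 4 and from 5.56% to 11.1% in 5, so the division is inferred. They also deposited a normalized signal, which was the count times 1 factor per library, and columns of a fold change and a p-value, which were not used. A line that named no miRNA (1) was left out.

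Estimated counts were rounded and fitted over the whole table with edgeR 4.0.16 in R 4.3.3 (TMM factors, glmQLFit and glmQLFTest, two-sided, group only), for 1085 entries above 0 in at least 3 libraries. The p-values were adjusted by Benjamini-Hochberg over these entries, and the common biological coefficient of variation was 0.469. CPM used the TMM library sizes. The fit was tested on simulated data. Alternatives were DESeq2 1.42.0, limma 3.58.1 on log2(signal + pseudocount), other scalings and filters, merged identical sequences, a replicate block and leaving out each library. Members were named by abundance per letter and arm, as the most abundant 5p length variants, and as the 10 with the smallest p, identical entries once, and others are named where the text says why or for their sequence. Members and lists were chosen with earlier results of these data known. Intervals cover the spread between libraries, and a count of 3 was taken as the floor for counting error only.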

Additional observations from a re-analysis of the deposited data

How the results depend on the processing

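The count of 0 let-7 entries at the study's thresholds changed only when a library was left out, where it ranged from 0 to 4. It was 4 of 59 tested members without WR_S replicate 3, beside 76 of all entries. Without YR_S replicate 2 it was 1 of 59, beside 106 of all entries. How many of all entries were tested in these fits is not given here, against 1085 in the main fit. No member reached an adjusted p under 0.05 in any alternative. The 4 were ssa-let-7a-3p and gga-let-7a-2-3p_1ss8AG, which hold 1 sequence and identical counts, oni-let-7a-1-p3_1ss3GA and ssa-let-7i-2-3p_R-1_1ss9GA. The 1 was dre-let-7d-5p_L+1_1ss20GT, with counts of 6, 4 and 5 in WR_S and 0 in YR_S replicates 1 and 3. The count over all entries went from 89 to 55 when a mean of at least 10 counts was asked for, where fewer entries were tested, and ranged from 56 (without WR_S replicate 2) to 106 (without YR_S replicate 2) when 1 library was left out. With a replicate block, 77 of all entries and 0 let-7 entries met the thresholds. Same-numbered libraries deviated together with r of 0.13, 0.05 and 0.24, and differently numbered ones with r of -0.19 to 0.03. The numbers were not taken as pairs in the main fit, and the replicate block gives the counts with them so taken. None of the named members passed a threshold with all 6 libraries, and 79 of their 533 values under alternatives had the other sign, in 14 of 30 members whose main value lay within 0.30 of 0 on the log2 scale.

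With identical sequences taken once, the summed level was 32238 CPM in WR_S and 31926 CPM in YR_S, the share of entries named let-7a was 26.95% and 30.6%, the 3p share was 3.90% and 4.03%, and the share of 5p and 3p sequences other than 22 bases was 0.444% and 0.421% instead of 0.183% and 0.169%. These values would hold if entries of 1 sequence each held all of its reads. Leaving out entries with a base change gave 0.156% and 0.133% for that last share. The let-7a share was 0.542% and 0.647% without sequences that entries of several letters hold, which removes the main let-7a sequence, and 52.6% and 57.3% by sequence, an alternative chosen after seeing the data. YR_S replicate 1 held the fewest counts, so that low levels rest on few counts there (2 counts were 1.30 CPM and 4 counts 2.60 CPM).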
